A study of Homo sapiens with 36 samples.

Results

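The long noncoding genes that carry small nucleolar RNAs (snoRNAs) in their introns were followed in 36 RNA-seq libraries from 3 human B-cell leukaemia lines. Members were taken by symbol (SNHG followed by a number, GAS5 or ZFAS1) with a summed count of at least 100 over the 36 libraries. Of 26 symbols that matched, 24 passed and make up the 24 members among 37549 entries with a symbol. The other 2, SNHG27 and SNHG28, were at 0 in every library. The members nearest to the threshold were SNHG18, SNHG25, SNHG9 and SNHG22, with 592, 936, 943 and 1098 counts in all. MEC1 cells were exposed for 48 h, JVM2 cells for 72 h and EHEB cells for 96 h to the vehicle DMSO, 50 µM fludarabine (a purine analogue), 5 µM ibrutinib (an inhibitor of Bruton's tyrosine kinase) or 10 µM idelalisib (an inhibitor of the PI3K delta isoform), with 3 libraries for each of the 12 combinations. Per the study's methods, MEC1 carries mutated p53 whereas EHEB and JVM2 are p53 wild-type. Each is an established line kept in culture, so no cells of a patient or of the surrounding tissue were present. The comparisons asked how the host genes differed between the lines, how each drug moved them against DMSO in the same line, and whether those effects differed between lines.

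A snoRNA host gene is transcribed and spliced as a whole, and the snoRNAs are then trimmed out of the removed introns. Box C/D snoRNAs guide methylation and box H/ACA snoRNAs guide pseudouridylation of ribosomal RNA, whereas the related small Cajal body RNAs (scaRNAs) act on spliceosomal RNAs. The spliced host transcript is left over: in several hosts, GAS5 among them, it holds only short reading frames, is bound by ribosomes and is degraded by nonsense-mediated decay, so that its level can move with translation as well as with transcription. Many hosts, like the ribosomal protein genes, start transcription in a run of pyrimidines known as a terminal oligopyrimidine tract. GAS5 was first named for its build-up in cells whose growth was arrested.

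All 24 members were annotated as long noncoding RNA genes in GENCODE v44 on GRCh38. Start site sequences in RefSeq (GRCh38.p14) were matched for 20 members. A tract of a C followed by at least 5 C or T letters, searched on the gene's strand within 20 bases either side of the start, was found in 12 of the 20 (60%) and in 30.9% of 35116 promoters of the same table. The palindrome CACGTG was found in 1 of the 20 windows of 300 bases (5.0%) against 7.26% of all promoters, and TATAAA on the gene's strand in 2 (10.0%) against 7.33%. These matches describe letters and no measurement of the start site was made here. The RefSeq start can differ from that of the GENCODE gene. For SNHG14, counted with a tract, the window of 300 bases (chr15:24823358-24823657) lies outside the GENCODE gene, which starts at 24978583. The window of GAS5, counted without a tract, also lies outside its GENCODE gene. The first 4 sequences below belong to members with a tract whose levels carry the line and drug differences described later, and the last 2 to members with none in that window. Each runs 5′ to 3′ on the gene's strand over 100 bases, with the RefSeq start at its middle and the tract in capitals.
SNHG7 (chr9:136728135-136728234, minus strand): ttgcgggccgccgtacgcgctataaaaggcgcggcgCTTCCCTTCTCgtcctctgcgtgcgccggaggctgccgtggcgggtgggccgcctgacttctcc
SNHG8 (chr4:118278712-118278811, plus strand): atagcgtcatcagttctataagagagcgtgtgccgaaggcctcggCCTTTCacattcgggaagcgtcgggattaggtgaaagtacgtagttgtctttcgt
SNHG12 (chr1:28581824-28581923, minus strand): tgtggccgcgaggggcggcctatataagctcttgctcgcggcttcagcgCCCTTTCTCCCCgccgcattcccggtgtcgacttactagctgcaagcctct
SNHG19 (chr16:2155309-2155408, minus strand): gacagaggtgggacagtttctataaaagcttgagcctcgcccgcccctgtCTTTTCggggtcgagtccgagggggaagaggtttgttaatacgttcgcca
SNHG3 (chr1:28505893-28505992, plus strand): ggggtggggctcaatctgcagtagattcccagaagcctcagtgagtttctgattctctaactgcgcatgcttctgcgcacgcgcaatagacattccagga
ZFAS1 (chr20:49278592-49278691, plus strand): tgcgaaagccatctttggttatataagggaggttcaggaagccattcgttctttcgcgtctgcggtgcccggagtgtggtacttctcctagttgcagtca

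The library totals ran from 26590705 to 53538925 counts and the members together took 0.0421 to 0.112% of them. The libraries of one group differed beyond counting noise in each of 36 pairs, with a chi-square of 24.9 to 48.9 per degree of freedom. The labels do not say that the 3 libraries of a group were separate cultures, so p-values measure the spread between these libraries, which may be technical. The DMSO and fludarabine libraries of each line carry one run of library numbers and the 2 inhibitors another with no DMSO of its own, so an inhibitor's effect against DMSO cannot be told apart from a difference between the runs. Nor can a line be told apart from its exposure time, or fewer cells of a kind and less RNA per cell. All 7 B-cell markers were detected in each line, at a summed 671.4 to 2194 counts per 1e6 counts (CPM), and moved with treatment: 7 of 7 were higher in MEC1 with ibrutinib and 7 of 7 lower in EHEB with fludarabine. Summed T-cell markers reached 59.45 CPM, with CD3D at 0 in MEC1 and JVM2, NK-cell markers 70.94 CPM and monocyte markers 14.29 CPM, with FCN1 at 0 in every library, and no erythroid marker had 10 counts in any library. T-cell markers moved as well, with 3 of 3 tested lower in EHEB with each inhibitor. The part of these shifts in the members' values was not tested.

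Levels are given as CPM scaled by the trimmed mean of M-values (TMM) within a line. A gene was called changed when the quasi-likelihood F-test of edgeR gave an adjusted p (Benjamini-Hochberg over all genes tested) under 0.05. Differences are log2 fold changes with their standard error (SE), where 1 unit is a 2-fold change, and SD is the standard deviation of 3 libraries. The libraries of a group are named 1 to 3 in the order of their numbers in the labels, and values by library stand in that order, except for the levels across lines and of hosted RNAs, which run from lowest to highest.

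In the DMSO libraries, most of the hosts called in a pair of lines were higher in MEC1 than in the other line and lower in EHEB than in JVM2. MEC1 was above EHEB for 18 members and below it for 3 (60.6% of all genes were called, 28.5% higher), with a median difference of 1.25 over the 24 members. EHEB was below JVM2 for 14 members and above it for 2 (53.2% of all genes called, 26.4% lower), with a median of -0.84. MEC1 was above JVM2 for 10 members and below it for 2 (57.1% of all genes called, 27.1% higher and 30.0% lower), with a median of 0.44. The members called made up 50.0% there, below the share of all genes. This last comparison gave 12 higher and 0 lower on library sizes alone, a scaling that moved the median of all genes by 0.13 (log2).

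Per kilobase of canonical transcript, SNHG16 and GAS5 held the first 2 places in each line. The ranking depends on the length used: their canonical transcripts have 498 and 768 bases, and all their annotated exons together 5776 and 4932. By share of the member counts in MEC1, SNHG16 (10.2%) came after GAS5 (14.7%) and SNHG3 (13.1%). In JVM2 and EHEB, SNHG16 (22.5% and 33.2%) and GAS5 (18.4% and 15.5%) led by counts as well. GAS5 stood at 168.1 ± 3.193 CPM per kb in MEC1, 178.5 ± 4.649 in JVM2 and 128.7 ± 6.592 in EHEB (SD, n = 3). SNHG16 stood at 181.5 ± 51.81, 335.8 ± 11.62 and 449.2 ± 219.7 CPM per kb, and its range of 121.7 to 213.6 in MEC1 covered the level of GAS5. SNHG1 (69.67), SNHG5 (66.19) and SNHG3 (52.16 CPM per kb) came next in MEC1. In JVM2 the next were SNHG5 (45.03) and SNHG1 (27.77), and in EHEB SNHG5 (53.85) and SNHG3 (25.19), with SNHG1 at 11.56 CPM per kb. SNHG22 was near the bottom of each line, at 0.8644, 0.7192 and 0.2066 CPM per kb.

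**Figure D1:**
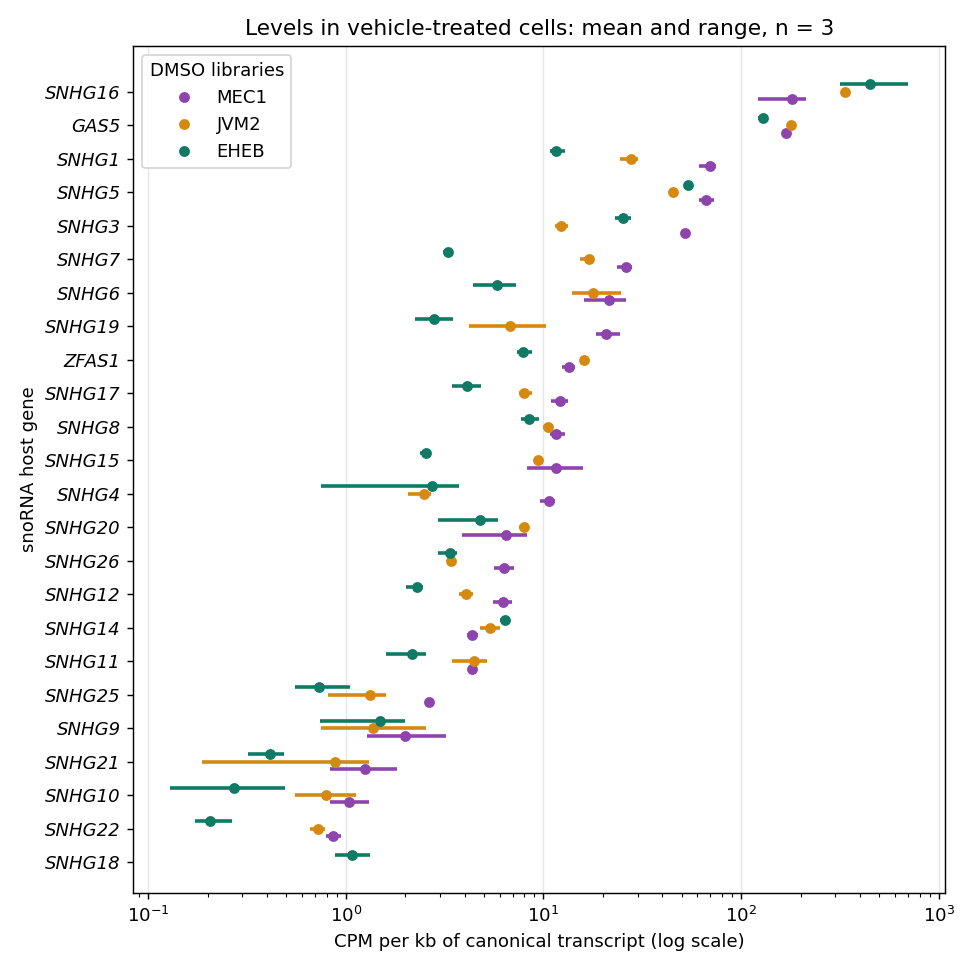
Level of the 24 members in the DMSO libraries, in CPM per kilobase of canonical transcript on a log axis, with the mean as a point and the range of 3 libraries as a bar for each line. GAS5 and SNHG16 lie highest in each line on this scale, which depends on their short canonical transcripts. SNHG1, SNHG7 and SNHG19 are spread furthest between the lines among the members detected in all of them.

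The levels across lines below are on one TMM scale over all 36 libraries. SNHG7, which carries box H/ACA snoRNAs, was at 55.33, 63.24 and 66.48 CPM in MEC1, at 36.19, 41.25 and 42.42 CPM in JVM2 and at 7.322, 7.934 and 8.083 CPM in EHEB. The 3 lines did not overlap, and MEC1 stood 2.99 log2 units above EHEB (SE 0.12, adjusted p = 1.27e-18). SNHG19, a short gene of 2 exons on chromosome 16, was at 7.245, 7.712 and 9.662 CPM in MEC1, at 1.655, 2.354 and 4.041 CPM in JVM2 and at 0.8806, 1.058 and 1.376 CPM in EHEB. Its lines kept the same order without overlap, 2.89 units apart between MEC1 and EHEB (SE 0.253, adjusted p = 4.8e-11). SNHG1, the host of several box C/D snoRNAs, fell from 71.42 to 86.73 CPM in MEC1 through 28.48 to 34.83 CPM in JVM2 to 12.52 to 15.01 CPM in EHEB, with MEC1 2.59 units above EHEB (SE 0.132).

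SNHG3 had another order, at 113.5 to 116.5 CPM in MEC1, 50.74 to 61.36 CPM in EHEB and 25.22 to 29.4 CPM in JVM2, with neighbouring lines 1.05 and 1.03 log2 units apart. GAS5 was the flattest of these, at 127.2 to 131.9 CPM in MEC1, 133.8 to 140.9 CPM in JVM2 and 93.1 to 102.6 CPM in EHEB. GAS5 in EHEB lay below both other lines. The MEC1 libraries also lay just below those of JVM2, without overlap, but that difference missed the threshold (-0.09, adjusted p = 0.388). SNHG18 was detected in EHEB alone, with 21 to 101 counts in its 12 libraries. It was at 0 in all 24 libraries of MEC1 and JVM2, where a count of 0 allows up to 3 counts, or 0.05723 to 0.09924 CPM by library, for counting error only. Were a count 3/8 of a read, as the low counts leave possible, 3 reads would be 8 counts or 0.1526 to 0.2646 CPM.

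Over the 210 tests of a member against DMSO, 42 gave a higher and 49 a lower level, or 43.3% called, where 19.7 to 55.0% of all genes were called in the 9 comparisons. Both directions occurred in 12 members, 7 were called higher only, 3 lower only and 2, SNHG9 and SNHG16, were not called in any of the 9 comparisons. The 3 drugs of a line share its DMSO libraries, so their values are set side by side and not as independent evidence. The map of fold changes shows these calls.

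**Figure D2:**
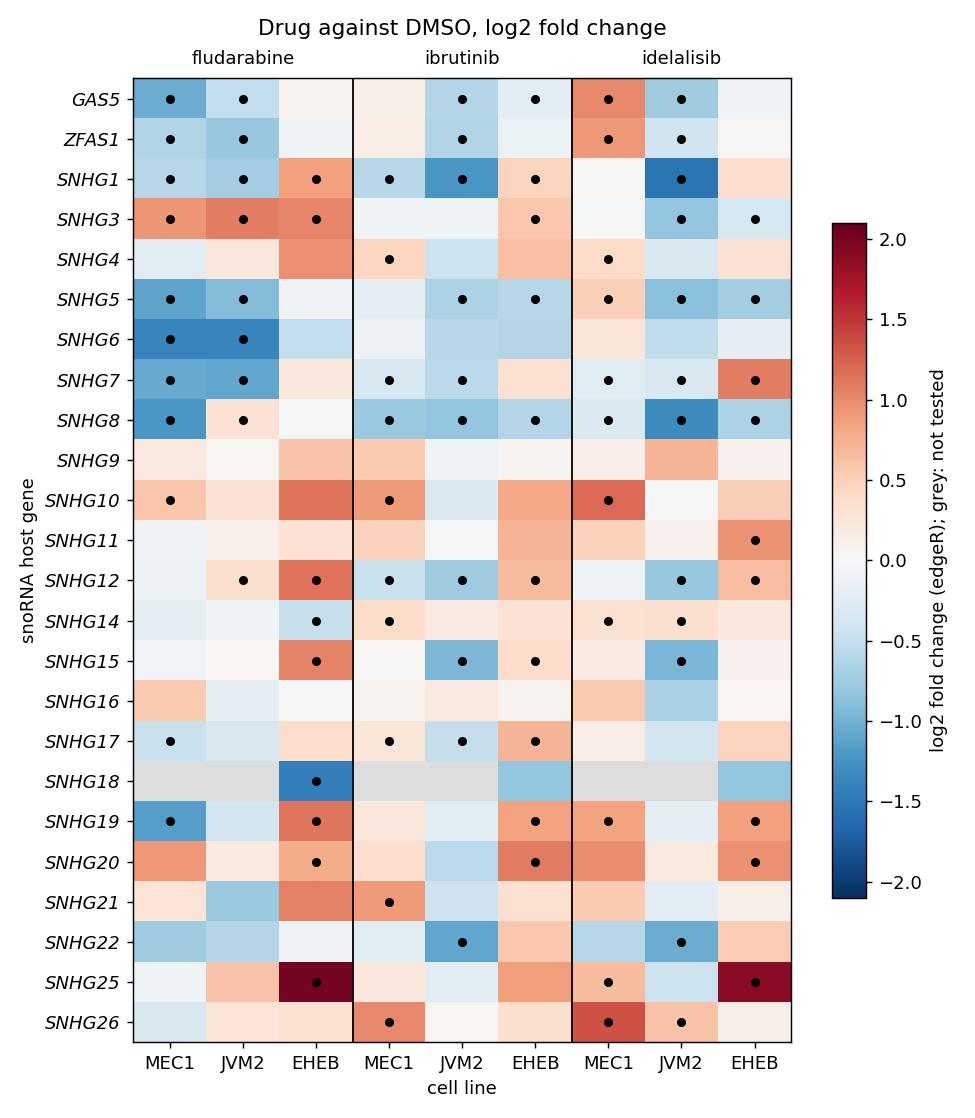
Log2 fold change of the 24 members (rows) in the 9 comparisons of a drug with DMSO in the same line (columns), with blue lower and red higher than DMSO, a black dot for an adjusted p under 0.05 and grey for SNHG18, not tested in MEC1 and JVM2. With fludarabine, 17 of 23 members lie below 0 in MEC1 and 12 of 23 in JVM2 with SNHG3 red in each line, and GAS5, ZFAS1 and SNHG5 are red with idelalisib in MEC1 and blue in JVM2.

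Fludarabine lowered most of the called hosts in MEC1 and raised most of them in EHEB, while SNHG3 rose in every line. In MEC1, 2 members rose and 9 fell of 23 tested (43.9% of all genes were called, 21.2% higher and 22.7% lower), with a median of -0.24 over the members. In JVM2, 3 rose and 6 fell of 23 (47.2% of all genes called, 23.9% higher and 23.3% lower), with a median of -0.09. In EHEB, 7 rose and 2 fell of 24 (37.5% of all genes called, 18.4% higher and 19.2% lower), with a median of 0.34. The shares of members called, 47.8%, 39.1% and 37.5%, lay near those of all genes in MEC1 and EHEB and below in JVM2. Scaling on library size moved the median of all genes by 0.25 in MEC1, 0.20 in JVM2 and 0.11 in EHEB (log2), and the members then split into 4 higher and 8 lower, 4 and 6, and 8 and 1.

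SNHG3 hosts the near-identical box H/ACA RNAs SNORA73A and SNORA73B. In MEC1 it was at 117.4, 118 and 121 CPM with DMSO and at 206, 240.4 and 235 CPM with fludarabine, with no overlap (0.93, SE 0.0679, adjusted p = 1.35e-06). In JVM2 it went from 28.6, 24.4 and 25.9 CPM to 47, 49.2 and 70.9 CPM, again without overlap though with 1 fludarabine library well above the others (1.08, SE 0.151, adjusted p = 0.00014). EHEB moved from 60.2, 49.9 and 53.4 CPM to 125, 101 and 106 CPM (1.02, SE 0.115, adjusted p = 3.57e-05). SNHG3 overlaps RCC1 on the same strand, with 242 bases of its canonical exons inside exons of RCC1 transcripts, so reads may be shared. RCC1 was not called with any drug in any line, but in JVM2 it was at 16.39 to 17.34 CPM with DMSO and at 20.82 to 27.45 CPM with fludarabine, without overlap and in the direction of SNHG3 (0.58, adjusted p = 0.0895). The part of shared reads was not tested.

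GAS5 fell with fludarabine in MEC1 from 136, 132 and 133.3 CPM to 61, 73.6 and 59.6 CPM (-1.05, SE 0.106, adjusted p = 1.52e-05). In JVM2 it went from 132.8, 129.6 and 136 CPM to 101, 87.5 and 91.9 CPM (-0.51, SE 0.0678, adjusted p = 9.87e-05). Neither line had overlapping libraries, whereas in EHEB 99, 91.6 and 101 CPM with DMSO overlapped 99.7, 106 and 98.2 CPM with fludarabine (0.06, adjusted p = 0.495). ZFAS1, the antisense neighbour of ZNFX1 and host of box C/D snoRNAs, was at 63.1, 67.3 and 58.2 CPM in MEC1 with DMSO and at 42, 40.3 and 39.9 CPM with fludarabine (-0.63, SE 0.108, adjusted p = 0.00068). In JVM2 its values were 70.8, 74.5 and 67.2 CPM against 45.4, 37.7 and 38.9 CPM (-0.80, SE 0.0908, adjusted p = 2.94e-05). In EHEB ZFAS1 stayed within 32.5 to 39 CPM over both groups and was not called.

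SNHG7 and SNHG5 followed the same pattern. SNHG7 went from 65.4, 57.2 and 69 CPM to 30.8, 29.4 and 31.8 CPM in MEC1 (-1.06, SE 0.074, adjusted p = 1.05e-06) and from 35.2, 39.9 and 41.1 CPM to 20.1, 18.9 and 15.4 CPM in JVM2 (-1.09, SE 0.109, adjusted p = 1.07e-05). In EHEB its groups overlapped (0.22, not called). DIPK1B overlaps the canonical exons of SNHG7 on the other strand, so reads may be shared. In JVM2 DIPK1B was lower with fludarabine (-2.05, adjusted p = 3.48e-08), ibrutinib (-0.34) and idelalisib (-0.33). It was not called in MEC1 or EHEB, and the part of shared reads was not tested. SNHG5 fell by 1.10 in MEC1 and by 0.91 in JVM2, with -0.07 in EHEB, and SNHG6 fell by 1.39 and 1.37 in MEC1 and JVM2 with -0.52 (not called) in EHEB.

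SNHG1 moved in opposite directions between lines. It was at 73.9, 87.6 and 90.0 CPM with DMSO and at 51, 56.5 and 59 CPM with fludarabine in MEC1 (-0.60, SE 0.127, adjusted p = 0.00286). In JVM2 it went from 33.9, 32.5 and 27.6 CPM to 17.4, 21.4 and 17.9 CPM (-0.73, SE 0.0966, adjusted p = 9.56e-05). In EHEB, where it started lowest, it rose from 12.3, 12.6 and 14.8 CPM to 21.5, 23.8 and 26.6 CPM (0.86, SE 0.145, adjusted p = 0.000717). None of the 3 pairs of groups overlapped. SNHG19 was likewise lower in MEC1 and higher in EHEB, with 9.99, 7.98 and 7.52 CPM against 3.25, 3.59 and 4.66 CPM in MEC1 (-1.15, SE 0.154, adjusted p = 0.000118) and 1.04, 1.35 and 0.867 CPM against 2.82, 2.48 and 1.85 CPM in EHEB (1.13, SE 0.263, adjusted p = 0.00563).

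SNHG8, host of the box H/ACA RNA SNORA24, separated MEC1 from JVM2. In MEC1 it went from 69.2, 70.1 and 82.1 CPM to 31.1, 32.4 and 31.6 CPM (-1.22, SE 0.0903, adjusted p = 1.55e-06). In JVM2 it rose from 59.5, 64.5 and 65 CPM to 81.9, 79.7 and 72.4 CPM (0.31, SE 0.073, adjusted p = 0.00493), and in EHEB it was not called (-0.05). PRSS12 overlaps 2487 bases of the canonical exons of SNHG8 on the other strand, so reads may be shared. With fludarabine PRSS12 was lower in MEC1 (-0.70, adjusted p = 0.0452) and higher in JVM2 (1.31, adjusted p = 0.00217), as SNHG8 was. It was also higher in EHEB (0.56, adjusted p = 0.00599) and was not called with either inhibitor. The part of shared reads was not tested. SNHG12, which lies near SNHG3 on chromosome 1, rose in EHEB from 4.4, 3.7 and 4.53 CPM to 9.13, 8.52 and 10.3 CPM without overlap (1.15, SE 0.126, adjusted p = 2.86e-05). In JVM2 it was called higher at 0.34 (adjusted p = 0.0411), a call lost without DMSO library 1 or 2 or fludarabine library 2 or 3 (adjusted p 0.0662 to 0.14). SNHG15 was raised in EHEB from 6.97, 7.59 and 7.98 CPM to 15, 16.4 and 14.8 CPM (1.03, SE 0.112, adjusted p = 2.64e-05), with 0.05 in JVM2 and -0.05 in MEC1.

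**Figure D3:**
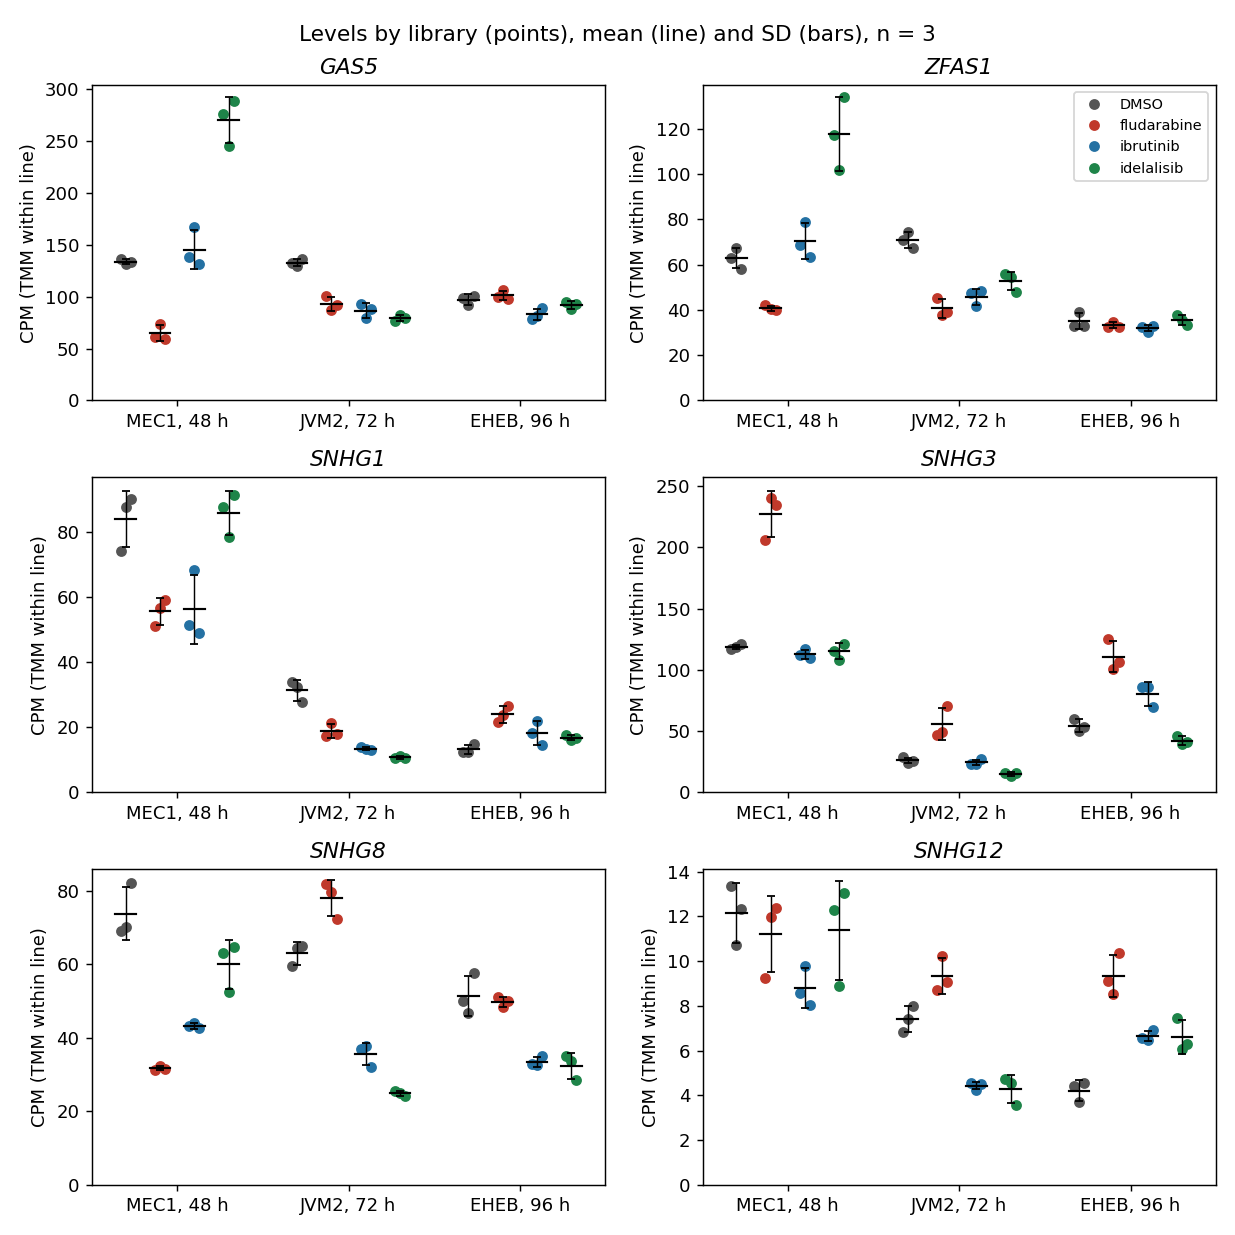
CPM of GAS5, ZFAS1, SNHG1, SNHG3, SNHG8 and SNHG12 in each of the 36 libraries, on the TMM scale of each line, with a point per library, a line at the mean and bars of 1 SD (n = 3). GAS5 in MEC1 lies between 59.6 and 73.6 CPM with fludarabine and between 246 and 289 CPM with idelalisib, on either side of its 132 to 136 CPM with DMSO.

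Ibrutinib lowered each host it called in JVM2 and raised most of those it called in EHEB, with MEC1 in between. In JVM2, 0 members rose and 10 fell of 23 (29.4% of all genes were called, 15.0% lower), with a median of -0.49. In EHEB, 7 rose and 3 fell of 24 (19.7% of all genes called, 8.5% higher), with a median of 0.36. In MEC1, 6 rose and 4 fell of 23 (47.6% of all genes called), with a median of 0.16. On library sizes alone the splits were 0 and 9 in JVM2, and 7 and 2 in EHEB. The count in EHEB fell to 5 without DMSO library 1 or ibrutinib library 2. Among the members called higher in EHEB, SNHG1, SNHG15, SNHG17 and SNHG19 each lost the call without 4 of the 6 libraries taken singly. The lower call of GAS5 in EHEB was lost as often.

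SNHG8 was the member called lower with ibrutinib than with DMSO in all 3 lines. Its values were 43.1, 43.9 and 42.5 CPM in MEC1 (-0.77, SE 0.0892, adjusted p = 3.26e-05), 36.9, 37.6 and 32 CPM in JVM2 (-0.83, SE 0.0737, adjusted p = 2.37e-05) and 32.7, 32.6 and 34.9 CPM in EHEB, against 50.0, 46.8 and 57.5 CPM with DMSO there (-0.62, SE 0.0929, adjusted p = 0.000898). No ibrutinib library reached the lowest DMSO library of its line. In each line these groups lie in different runs of library numbers, so drug and run cannot be told apart.

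GAS5 with ibrutinib was at 138, 167 and 131 CPM in MEC1, overlapping DMSO (0.12, adjusted p = 0.362), and at 92.8, 79.3 and 87.8 CPM in JVM2, below it (-0.62, SE 0.0679, adjusted p = 8.38e-05). In EHEB it was at 78.7, 81.5 and 88.9 CPM (-0.23, SE 0.0638, adjusted p = 0.0292), a call lost without DMSO library 1 or 3 or ibrutinib library 1 or 2 (adjusted p 0.0975 to 0.108). ZFAS1 was called in JVM2, at 47.6, 41.7 and 48.2 CPM (-0.63, SE 0.0905, adjusted p = 0.000477), and in neither other line (0.16 in MEC1). SNHG5 fell by 0.67 in JVM2 and by 0.60 in EHEB.

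SNHG1 fell with ibrutinib in MEC1 to 51.2, 68.3 and 49 CPM (-0.58, SE 0.127, adjusted p = 0.00304) and in JVM2 to 13.9, 13.2 and 13 CPM (-1.23, SE 0.0979, adjusted p = 1.2e-05). In EHEB its 18.2, 22 and 14.4 CPM overlapped DMSO although the test called it higher (0.46, SE 0.144, adjusted p = 0.0447), a call lost without DMSO library 1 or 2 or ibrutinib library 1 or 2 (adjusted p 0.102 to 0.164). SNHG12 was at 4.54, 4.25 and 4.5 CPM in JVM2 (-0.74, SE 0.123, adjusted p = 0.00117) and at 6.56, 6.46 and 6.9 CPM in EHEB (0.66, SE 0.125, adjusted p = 0.00393), below every DMSO library in JVM2 and above every one in EHEB. In MEC1 it was called lower at -0.46, which was lost without DMSO library 1 or 3 or ibrutinib library 1 or 3 (adjusted p 0.076 to 0.115).

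SNHG17, which hosts the SNORA71 family, was called in each line in differing directions. It stood at 18.7, 18.7 and 18.1 CPM against 17.1, 13.9 and 15.6 CPM in MEC1 (0.25, SE 0.084, adjusted p = 0.0275), at 7.15, 5.82 and 7.39 CPM against 10.6, 9.21 and 8.97 CPM in JVM2 (-0.49, SE 0.164, adjusted p = 0.0436) and at 8.85, 8.19 and 7.47 CPM against 4.92, 4.2 and 5.89 CPM in EHEB (0.71, SE 0.182, adjusted p = 0.0197). The groups did not overlap in any line, yet each call was lost without a single library: DMSO library 2 or 3 or ibrutinib library 1 or 2 in MEC1 (adjusted p 0.0662 to 0.111), each of the 6 in JVM2 (0.0681 to 0.167) and DMSO library 1 or 2 or ibrutinib library 1 or 2 in EHEB (0.0525 to 0.08). The largest rise with ibrutinib in MEC1 was that of SNHG26, from 5.86 to 7.38 CPM with DMSO to 12.5 to 13.7 CPM (1.01, SE 0.128, adjusted p = 6.42e-05), and SNHG3 rose in EHEB to 85.9, 86.3 and 69.4 CPM (0.56, SE 0.115, adjusted p = 0.00566).

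Most hosts called with idelalisib were higher in MEC1 and lower in JVM2. In MEC1, 9 members rose and 2 fell of 23 (55.0% of all genes were called, 27.6% higher), with a median of 0.40, and 7 and 2 on library sizes. The MEC1 idelalisib libraries stood apart in composition: their 10 most counted genes took 21.2 to 23.9% of counts against 11.9 to 14.2% with DMSO, and small nucleolar RNAs 0.447 to 0.519% against 0.316 to 0.438%. The part of this in the members' values was not tested. In JVM2, 2 rose and 10 fell of 23 (44.2% of all genes called, 22.6% lower), with a median of -0.42. In EHEB, 6 rose and 3 fell of 24 (33.3% of all genes called), with a median of 0.17. Scaling on library size moved the median of all genes in JVM2 by 0.10 and gave 2 and 9 there, and 7 and 2 in EHEB.

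GAS5 went with idelalisib from 136, 132 and 133.3 CPM to 276, 246 and 289 CPM in MEC1 (1.02, SE 0.106, adjusted p = 9.99e-06). In JVM2 it fell from 132.8, 129.6 and 136 CPM to 77, 82.2 and 79.1 CPM (-0.74, SE 0.068, adjusted p = 8.21e-06). In EHEB its 95.2, 87.7 and 93 CPM overlapped DMSO (-0.08, adjusted p = 0.378). ZFAS1 followed with 117.2, 102 and 134.3 CPM in MEC1 (0.91, SE 0.108, adjusted p = 2.75e-05), 55.8, 54.5 and 48 CPM in JVM2 (-0.42, SE 0.0903, adjusted p = 0.0029) and 37.8, 35.4 and 33.2 CPM in EHEB, where it was not called (adjusted p = 0.869). SNHG5 was raised by 0.50 in MEC1 and fell by 0.88 in JVM2 and 0.74 in EHEB. SNHG19 reached 14.8, 14.3 and 16.7 CPM in MEC1, above each DMSO library (0.84, SE 0.148, adjusted p = 0.000526).

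SNHG8 fell with idelalisib in every line, to 63, 52.4 and 64.7 CPM in MEC1 (-0.30, SE 0.0887, adjusted p = 0.0142), 25.5, 24.8 and 24.2 CPM in JVM2 (-1.34, SE 0.0747, adjusted p = 2.18e-07) and 34.9, 33.6 and 28.4 CPM in EHEB (-0.67, SE 0.0931, adjusted p = 0.000231). The call in MEC1 was lost without DMSO library 3 (-0.22, adjusted p = 0.059). As with ibrutinib, drug and run of library numbers cannot be told apart in these falls of SNHG8. SNHG1 fell in JVM2 to 10.6, 11.2 and 10.5 CPM (-1.54, SE 0.0989, adjusted p = 5.86e-07) and was not called in MEC1 (0.03) or EHEB (0.35, adjusted p = 0.0888). SNHG12 was again lower in JVM2, at 4.73, 4.56 and 3.55 CPM (-0.79, SE 0.123, adjusted p = 0.000368), and higher in EHEB, at 7.46, 6.07 and 6.29 CPM (0.65, SE 0.126, adjusted p = 0.00226).

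SNHG7 rose in EHEB from 7.79, 7.2 and 7.96 CPM to 15.3, 15 and 18.3 CPM (1.08, SE 0.141, adjusted p = 0.000149). In the other lines it was lower, by -0.26 in MEC1 (adjusted p = 0.0105) and -0.33 in JVM2 (adjusted p = 0.0276), the latter call being lost without DMSO library 2 or 3 or idelalisib library 2 or 3 (adjusted p 0.0754 to 0.1). SNHG3 fell in JVM2 to 15.9, 13.2 and 16 CPM (-0.81, SE 0.152, adjusted p = 0.00133). Its call in EHEB at 46.3, 39.2 and 40.8 CPM (-0.37, adjusted p = 0.0282) was lost without DMSO library 1 or 3 or idelalisib library 2 or 3 (adjusted p 0.0578 to 0.12). SNHG26 rose in MEC1 to 15.4 to 18.8 CPM (1.34, SE 0.129, adjusted p = 5.34e-06) and in JVM2 to 4.22 to 5.97 CPM from 3.2 to 3.47 CPM (0.60, SE 0.159, adjusted p = 0.0102).

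The inhibitors can be set against each other within one run of library numbers. In MEC1 idelalisib gave higher levels than ibrutinib for 6 members and lower for 0 (15.4% of all genes were called, 6.01% higher and 9.37% lower), with a median of 0.33. The 6 were GAS5 (0.89, SE 0.106, adjusted p = 0.000944), ZFAS1 (0.75, adjusted p = 0.00177), SNHG5 (0.68, adjusted p = 0.00136), SNHG1 (0.61, adjusted p = 0.0092), SNHG19 (0.61, adjusted p = 0.0171) and SNHG8 (0.47, adjusted p = 0.00553). The call of SNHG19 was lost without ibrutinib library 1 or 3 or idelalisib library 1 or 3 (adjusted p 0.0511 to 0.0792). On library sizes, which moved the median of all genes by -0.17, the split was 6 and 1. In JVM2, 1 member was higher and 3 lower with idelalisib (18.7% of all genes called, 8.21% higher and 10.5% lower): SNHG26 higher (0.56, adjusted p = 0.0316), and SNHG8 (-0.52, adjusted p = 0.000795), SNHG3 (-0.71, adjusted p = 0.00857) and SNHG1 (-0.32, adjusted p = 0.0464) lower. The call of SNHG1 was lost without any one of the 6 libraries (adjusted p 0.0656 to 0.136) and that of SNHG26 without ibrutinib library 1 or 2 or idelalisib library 1 or 3 (adjusted p 0.079 to 0.124). In EHEB SNHG7 was higher (0.76, adjusted p = 0.00377) and SNHG3 lower (-0.94, SE 0.116, adjusted p = 0.000305) among 24 members (15.9% of all genes called, 6.77% higher and 9.09% lower). The members called made up 17.4% in JVM2, near the share of all genes, and 8.33% in EHEB, below it.

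The differences between lines were tested as interactions in a joint fit of the 36 libraries. The fludarabine effect was lower in MEC1 than in EHEB for 12 members and higher for 0 (27.7% of all genes were called, 12.4% lower). It was higher in EHEB than in JVM2 for 10 and lower for 1 (20.8% of all genes called, 9.94% higher), whereas MEC1 and JVM2 differed for 2 (23.6% of all genes called). The ibrutinib effect was higher in EHEB than in JVM2 for 10 members (11.6% of all genes called, 4.75% higher) and in MEC1 than in JVM2 for 7 (24.8%, 9.88% higher), with none of the 24 lower in either. The idelalisib effect was likewise higher in MEC1 than in JVM2 for 10 members (32.3% of all genes called, 13.3% higher) and in EHEB than in JVM2 for 10 (19.2%, 8.88% higher), with 0 lower. MEC1 against EHEB split, with 1 higher and 4 lower for ibrutinib (25.2% of all genes called) and 4 higher and 3 lower for idelalisib (35.3%). For GAS5 the idelalisib effect differed by 1.69 between MEC1 and JVM2 (SE 0.116, adjusted p = 2.66e-12). For SNHG1 the fludarabine effect differed by -1.41 between MEC1 and EHEB (SE 0.177, adjusted p = 3.78e-07).

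Several members were low or uneven. SNHG18 in EHEB went from 2.5, 1.67 and 1.96 CPM with DMSO to 0.749, 0.717 and 0.794 CPM with fludarabine (-1.43, SE 0.307, adjusted p = 0.00339). SNHG25, below 1.51 CPM in every library, was higher in EHEB with fludarabine (2.003, adjusted p = 0.00228) and with idelalisib (1.89, adjusted p = 0.00402), from 0.169 to 0.321 CPM with DMSO. SNHG20, host of the scaRNA SCARNA16, was higher in EHEB with each drug (0.78, 1.08 and 0.95), the fludarabine call being lost without DMSO library 2 or fludarabine library 1, 2 or 3 (adjusted p 0.0537 to 0.0697) and the idelalisib call in the joint fit of 36 libraries. SNHG10, host of SCARNA13, was higher in MEC1 with each drug (0.59, 0.89 and 1.19), with the fludarabine call lost without DMSO library 1 or 2 or fludarabine library 2 or 3 (adjusted p 0.0503 to 0.0767) and the ibrutinib call in the joint fit. SNHG22 was lower in JVM2 with ibrutinib (-1.08) and idelalisib (-1.04), from 1.03 to 1.23 CPM. The first call was lost without DMSO library 1 or 3 or ibrutinib library 2 or 3 (adjusted p 0.0552 to 0.0756) and the second without DMSO library 1 or idelalisib library 3 (adjusted p 0.0509 to 0.0718).

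The remaining calls were as follows. SNHG4, host of SNORA74A, was higher in MEC1 with ibrutinib (33.7 to 36.9 CPM) and idelalisib (31.6 to 37.2 CPM) than with DMSO (23.7 to 28.3 CPM), at 0.44 and 0.40, though neither call held in the joint fit. SNHG15 was lower in JVM2 with ibrutinib (-0.94, adjusted p = 0.000825) and idelalisib (-0.96, adjusted p = 0.000338). It was called higher in EHEB with ibrutinib (0.39). That call was lost without DMSO library 1 or 2 or ibrutinib library 1 or 2 (adjusted p 0.0575 to 0.114). SNHG7 was lower with ibrutinib in MEC1 (-0.34) and in JVM2 (-0.56). SNHG14, the very long host of the imprinted snoRNA clusters on chromosome 15, was lower in EHEB with fludarabine (-0.49, adjusted p = 0.00806), a call lost on library sizes. It was called higher in MEC1 with both inhibitors (0.38 and 0.31) and in JVM2 with idelalisib (0.34), and each of these was lost without at least 3 of the 6 libraries taken singly (adjusted p up to 0.172). SNHG17 was lower in MEC1 with fludarabine (-0.46, adjusted p = 0.00108), a call also lost on library sizes. SNHG19 was called higher in EHEB with ibrutinib (0.84) and idelalisib (0.86), SNHG11 there with idelalisib (0.94), SNHG21 in MEC1 with ibrutinib (0.89) and SNHG25 in MEC1 with idelalisib (0.67), and each of these 5 calls was lost without 1 of at least 2 libraries (adjusted p 0.0648 to 0.165). FSD2 overlaps 357 bases of the canonical exons of SNHG21 on the other strand, so reads may be shared. FSD2 was also higher in MEC1 with ibrutinib (1.235, adjusted p = 0.0201). It was higher there with fludarabine (2.24) and idelalisib (1.715) and lower in EHEB with both inhibitors, where SNHG21 was not called. The part of shared reads was not tested. SNHG9 ranged from 0 to 1.17 CPM over the 36 libraries and its groups overlapped in all 9 comparisons with DMSO.

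SNHG16 stood apart from the rest in its spread. With DMSO, ibrutinib and idelalisib, EHEB libraries read 160.4, 155 and 344 CPM, 148, 150.4 and 395 CPM, and 155, 150.4 and 374 CPM, so 1 library of each group lay far above the other two. In JVM2 one ibrutinib library was at 315 CPM beside 123 and 121 CPM. The 24 members summed to 913.2 ± 62.98, 780.6 ± 42.67, 880.3 ± 42.5 and 1216 ± 83.7 CPM in MEC1 with DMSO, fludarabine, ibrutinib and idelalisib (SD, n = 3), and to 720.8 ± 11.09, 596.2 ± 35.72, 563.7 ± 97.38 and 465.9 ± 50.41 CPM in JVM2. Without SNHG16 the sums in MEC1 were 819.6 ± 44.88, 643.6 ± 27.32, 781.6 ± 51.94 and 1078 ± 85.73 CPM, with a larger SD than before for both inhibitors, those in JVM2 were 558.6 ± 10.52, 454.8 ± 12.17, 377.3 ± 18.03 and 364.6 ± 19.56 CPM and those in EHEB 419.4 ± 23.99, 495.2 ± 9.854, 417.8 ± 14.22 and 385.6 ± 15.98 CPM. Counts of 13 members could include reads of another gene with which their canonical exons overlap, 5 on the same strand and 9 on the other (SNHG21 on both), since the sources used here do not say whether the counting used strand.

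The protein-coding snoRNA hosts, mostly genes of ribosomal proteins and translation factors, formed a list of 40, each tested in the comparisons whose shares of all genes called stand above. With fludarabine 0 rose and 35 fell in MEC1 (22.7% of all genes were called lower), 2 and 33 in JVM2 (23.3%) and 4 and 24 in EHEB (19.2%), with medians of -0.91, -0.74 and -0.32. With ibrutinib the counts were 9 and 8 in MEC1 (47.6% of all genes called), 3 and 19 in JVM2 (29.4%) and 3 and 20 in EHEB (19.7%). With idelalisib they were 25 and 4, 3 and 31, and 1 and 27, with medians of 0.40, -0.47 and -0.38. RPS12, a protein of the small ribosomal subunit, changed in the same direction as GAS5 in MEC1 (fludarabine -1.29, idelalisib 0.95) and in JVM2 (-0.75 and -0.66). In EHEB, where 7 noncoding hosts rose with fludarabine, RPS12 was lower (-0.41, adjusted p = 0.00033), as were the translation factor EEF1B2 (-0.48) and RPS3A (-0.72).

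**Figure D4:**
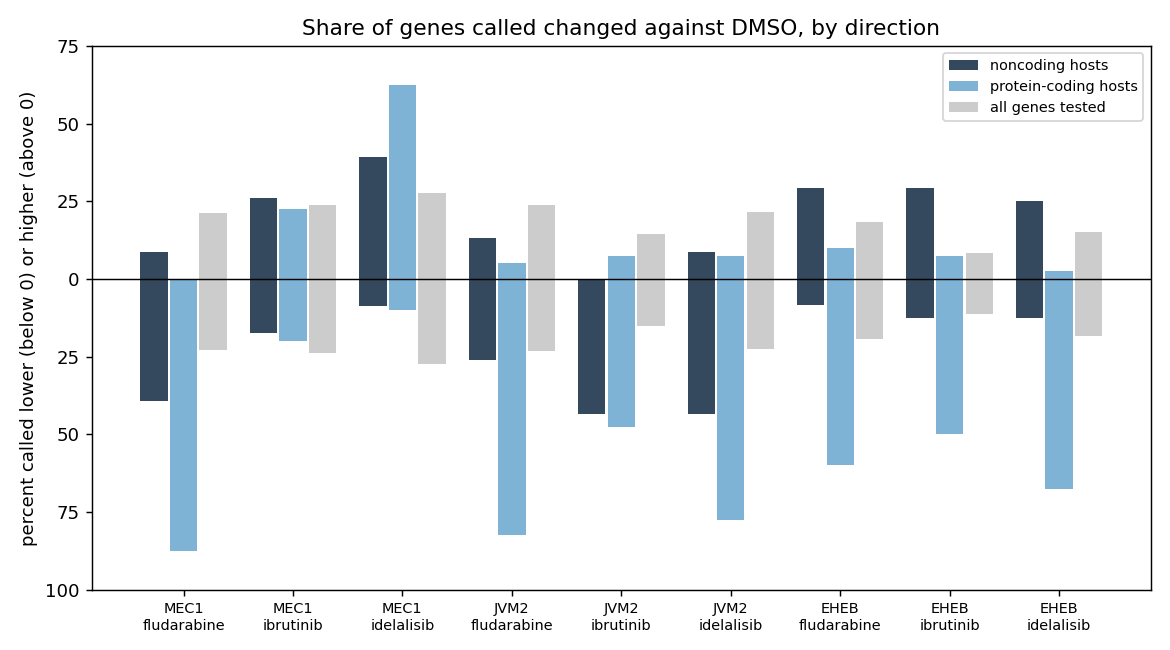
Percentage of genes called higher (up) or lower (down) at an adjusted p under 0.05 in the 9 comparisons with DMSO, for the noncoding hosts, the 40 protein-coding hosts and all genes tested. Protein-coding hosts are mainly lower with fludarabine in each line. In EHEB most noncoding hosts are not called with fludarabine or ibrutinib. Those called there are mostly higher, with 7 higher and 2 lower of 24 for fludarabine and 7 and 3 for ibrutinib.

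The machinery that degrades or matures these RNAs was read from lists of known components. Of 14 nonsense-mediated decay genes, 0 were higher and 11 lower in MEC1 with idelalisib (27.4% of all genes were called lower), with a median of -0.62, and 1 and 8 with ibrutinib (23.9% lower). UPF1, the central helicase of that pathway, fell in MEC1 by 0.49 with fludarabine, 1.04 with ibrutinib and 1.56 with idelalisib (adjusted p = 0.00115, 4.61e-06 and 1.77e-07), and UPF2 by 0.43 and 0.73 with the inhibitors. In EHEB the same list had 6 higher and 0 lower with fludarabine, 6 and 1 with ibrutinib and 7 and 0 with idelalisib, where 18.4%, 8.5% and 15.1% of all genes were called higher, with UPF1 at 0.21, 0.40 and 0.47. JVM2 was mixed, at 4 and 3, 3 and 3, and 6 and 4 (47.2%, 29.4% and 44.2% of all genes called). The 4 box C/D core genes gave 0 higher and 2 lower, 2 and 1, and 2 and 1 in MEC1 (fludarabine, ibrutinib, idelalisib), 1 and 1 with each drug in JVM2, and 1 and 1, 2 and 0, and 0 and 1 in EHEB. FBL, the methyltransferase of box C/D particles, was lower in 8 of the 9 comparisons, from -0.30 in JVM2 with ibrutinib to -1.22 there with fludarabine, and missed the threshold in EHEB with ibrutinib (-0.26, adjusted p = 0.052). The 4 box H/ACA core genes gave 0 and 1, 3 and 0, and 2 and 0 in MEC1, 0 and 1, 1 and 1, and 0 and 2 in JVM2, and 0 and 0, 0 and 0, and 0 and 2 in EHEB. Of these, NHP2 was lower with fludarabine in MEC1 (-0.91) and JVM2 (-0.45), and higher with ibrutinib (0.30) and idelalisib (0.42) in MEC1. Among 14 assembly and transport genes 1 was higher and 7 lower in MEC1 with fludarabine, 3 and 5 with ibrutinib and 2 and 9 with idelalisib (43.9%, 47.6% and 55.0% of all genes called), against 5 and 2, 6 and 1, and 4 and 3 in JVM2 and 3 and 0, 1 and 0, and 0 and 3 in EHEB. TGS1 and RUVBL1 of this list were each called in 6 of the 9 comparisons with DMSO, and TCOF1, a nucleolar factor, in 5. TCOF1 fell by 1.22 in MEC1 with idelalisib and rose by 0.46 in JVM2 with ibrutinib.

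The annotation placed 131 entries of snoRNAs or scaRNAs on the strand of 23 of the 24 hosts, 84 of them on SNHG14 and 125 within introns of the canonical transcript. Some positions, such as those of SNORA17A and SNORD60, carry a second entry, so the distinct RNAs are fewer. The snoRNAs of GAS5 were not analysed here. Libraries of this kind capture such short RNAs poorly and cannot tell a mature snoRNA from an intron still in its precursor. Among hosted RNAs with a SNORD (box C/D) symbol the most counted was SNORD22 of SNHG1, at 1840 counts. The 11 hosted RNAs with at least 3000 counts came from 8 hosts, and none had such a symbol. Of the 11, 8 lie wholly inside an exon of another transcript of their host, so that host and guest counts can share reads. In the 99 comparisons of the 11 RNAs with DMSO they were higher 6 times and lower 23 times (29.3% called, against 19.7 to 55.0% of all genes by comparison). The host was called in the same direction in 9 cases and in the opposite one in 6.

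SNHG3 and its guests differed in direction with fludarabine in MEC1. SNORA73B was at 708.5, 1012 and 1164 CPM with DMSO in MEC1 and at 541.0, 546.6 and 551.1 CPM with fludarabine (-0.82, SE 0.155, adjusted p = 0.00133), below each DMSO library, while the host rose by 0.93. SNORA73A fell by 0.42 (adjusted p = 0.0173) in MEC1, and in JVM2 SNORA73B fell by 0.26 (adjusted p = 0.0372) beside a host at 1.08. SNORA73A was not called in JVM2 (-0.13, adjusted p = 0.24), nor was either guest in EHEB (-0.23, adjusted p = 0.212, and -0.47, adjusted p = 0.0565), where the host rose by 1.02. Reads of these copies may be shared between them. With idelalisib in MEC1, SNORA73A and SNORA73B rose by 0.70 and 0.52 and SNHG3 was not called (-0.05).

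The other pairs were mixed. SNORA24 fell by 1.26 in MEC1 with fludarabine (adjusted p = 0.000112) and by 1.25 in JVM2 with idelalisib (adjusted p = 8.24e-05), beside -1.22 and -1.34 for its host SNHG8. With ibrutinib in MEC1 it was not called (-0.16) while SNHG8 fell by 0.77, nor with idelalisib (0.22) while SNHG8 fell by 0.30. SCARNA13 rose in MEC1 with idelalisib from 68.96 ± 5.827 to 197.1 ± 21.67 CPM (SD, n = 3; 1.52, SE 0.157, adjusted p = 9.58e-06), beside 1.19 for SNHG10, but with fludarabine it fell by 0.66 there while SNHG10 was higher at 0.59. SNORA17B rose by 0.92 in MEC1 with idelalisib against -0.26 for its host SNHG7. SNORA71D had the deepest fall, -2.71 in MEC1 with fludarabine (SE 0.266, adjusted p = 1.16e-05), beside -0.46 for SNHG17. It had 24 to 65 counts in those fludarabine libraries. SNORA71A, of the same host and family, was not called there (-0.13, adjusted p = 0.737).

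**Figure D5:**
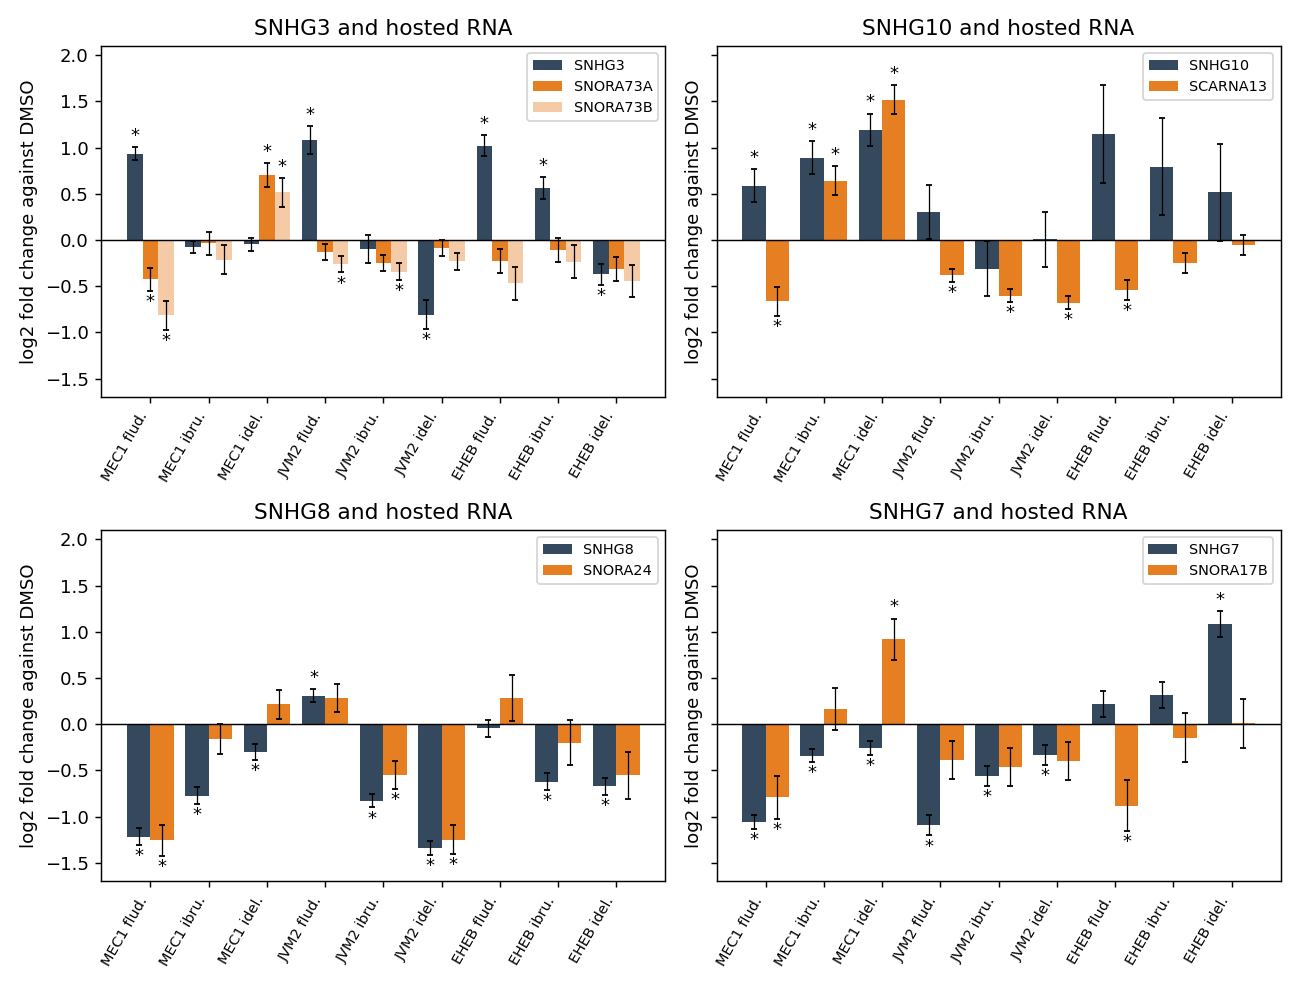
Log2 fold change against DMSO, with bars of 1 SE and an asterisk for an adjusted p under 0.05, of 4 hosts and the RNAs from their introns in each line and drug. With fludarabine in MEC1, SNHG3 is at 0.93 and SNORA73B at -0.82, whereas SNHG8 and SNORA24 are both near -1.2.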

How the data were processed

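Total RNA depleted of ribosomal RNA was sequenced from 36 libraries. Per the study's methods and the submitters' processing notes, the authors trimmed reads with Trimmomatic, aligned them to GRCh38 (hg38) with HISAT2 2.1, estimated counts with StringTie 1.3.4 and tested them with edgeR 3.22.5, and deposited one table of estimated counts for all libraries, as whole numbers without normalization. Counts above 0 pile up at 3, 6 and 8, so their unit need not be 1 read. The sources used here give neither the Ensembl release nor the strandedness. One row without a symbol (0.00384% of counts) was left out.

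Each line's 12 libraries were fitted with edgeR 4.0.16 (R 4.3.3; limma 3.58.1): filterByExpr (minimum count 10, minimum total 15), TMM factors, quasi-likelihood F-test and Benjamini-Hochberg adjustment over all genes, called under 0.05. SE is the size of the log2 fold change over the square root of F. Lines and interactions were compared in one fit of 36 libraries. The totals of 26590705 to 53538925 counts set the precision. Alternatives were DESeq2 1.42.0, limma-voom, library size scaling, no filter, other sets of libraries in the fit and each library left out. Dividing counts by 8/3 was added after the counts were seen. The fitting code was tested on simulated data.

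The members and gene lists were chosen with earlier results of these data known. Values by library are given for GAS5, ZFAS1 and SNHG1, and for members called alike in 3 lines, called in opposite directions in 2 lines (both taken by the smallest of their log2 fold changes, largest first), or differing most between the DMSO lines. For SNHG15, SNHG18 in EHEB, SNHG16 and SNHG26 they were added after their values were seen. Other lists name at most 3 genes, those called most often. Hosted RNAs were taken by position within a host's introns or exons, and those named were chosen after their values were seen.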

Additional observations from a re-analysis of the deposited data

Results flagged for a closer look

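The results below were singled out because a drug's effect differed between 2 lines by the interaction test of the joint fit. For fludarabine, the effect on 12 members differed between MEC1 and EHEB, on 11 between EHEB and JVM2 and on 2 between MEC1 and JVM2. For ibrutinib, the effect differed for 10 members between EHEB and JVM2, 7 between MEC1 and JVM2 and 5 between MEC1 and EHEB. For idelalisib the counts were 10 between MEC1 and JVM2, 10 between EHEB and JVM2 and 7 between MEC1 and EHEB.

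Among the members named by rule, the largest difference was that of SNHG19 with fludarabine, -2.24 in MEC1 against EHEB (SE 0.343, adjusted p = 9.19e-06). SNHG1 with fludarabine differed by -1.41 in MEC1 against EHEB (SE 0.177, adjusted p = 3.78e-07) and by 1.59 in EHEB against JVM2 (SE 0.178, adjusted p = 7.52e-08). SNHG12 with ibrutinib differed by -1.17 in MEC1 against EHEB (SE 0.198, adjusted p = 4.05e-05) and by 1.39 in EHEB against JVM2 (SE 0.2, adjusted p = 1.48e-05), and with idelalisib by 1.45 in EHEB against JVM2 (SE 0.201, adjusted p = 3.98e-06). GAS5 with idelalisib differed by 1.69 in MEC1 against JVM2 (SE 0.116, adjusted p = 2.66e-12). SNHG17 with ibrutinib differed by 1.19 in EHEB against JVM2 (SE 0.22, adjusted p = 0.000374) and by 0.69 in MEC1 against JVM2 (SE 0.217, adjusted p = 0.0185), the latter lost without JVM2 DMSO library 1 or ibrutinib library 2 (adjusted p 0.0557 to 0.0661). Exposure time differed with the line, so the lines and times cannot be told apart in these differences.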

How the results depend on the processing

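No called member changed direction in any of 3677 values under alternative settings or 4704 values with 1 library left out, while values not called on either side changed sign in 71 and 251 of them. Of the first, 3529 kept their side of the threshold, 82 lost a call and 66 gained one. Of the second, 4429 kept it, 221 lost and 54 gained a call. The number of called members stayed within 1.5 times its value except as follows. In MEC1 with ibrutinib it was 6 instead of 10 in the joint fit of 36 libraries. In EHEB with ibrutinib it was 6 instead of 10 without a filter and with the 6 libraries of the comparison alone, and ranged from 5 to 11 with 1 library left out. For idelalisib against ibrutinib in JVM2 it was 2 instead of 4 without a filter and 2 to 3 with 1 library left out. For the ibrutinib effect in EHEB against JVM2 it was 10, and 6 to 9 with 1 library left out, 6 being reached without EHEB ibrutinib library 3 or JVM2 ibrutinib library 2. The cause was not tested. No paired analysis was possible because library numbers are not shared between groups. Depth limits the members with the lowest counts most: SNHG9, SNHG18, SNHG21, SNHG22 and SNHG25.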
